A study of Homo sapiens with 8 samples.

Results

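The clustered histone genes are the small, mostly intronless genes that supply histone protein to newly copied DNA, and 59 of the 16153 genes in the deposited table belong to them. Members were the rows whose symbol begins with HIST1H, HIST2H, HIST3H or HIST4H, with symbols of pseudogenes left out, which removed 0 rows. GENCODE release 29 lists 58 of the 59 as protein coding and HIST2H2BA as a transcribed unprocessed pseudogene, which the symbol rule kept. The same release holds 71 coding genes named in this way, and the 13 that are not among the members were not analysed here. The members comprise 4 genes for linker histone H1, 14 for H2A, 18 for H2B, 11 for H3 and 12 for H4. Of these, 48 lie in the HIST1 locus on chromosome 6, 8 in HIST2 on chromosome 1, 2 in HIST3 on chromosome 1, and HIST4H4 stands alone on chromosome 12.

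RNA was sequenced in 8 libraries. The cells were HMEC-1, an endothelial line from human skin capillaries that was immortalised with the simian virus large T antigen, a protein that binds p53 and RB. All 8 cultures grew on gelatin-coated plastic coverslips in MCDB131 medium with serum, hydrocortisone, EGF, bicarbonate, antibiotics and HEPES, inside automated units that exchanged medium and fixed the cells in an RNA-preserving reagent. In the space_microg group (n = 3) the units flew to the International Space Station and stayed weightless. In the space_1g group (n = 2) they shared launch, incubator, fixation in orbit and return, but turned in the incubator's centrifuge at 1 g. In the ground group (n = 3) they travelled back to the home laboratory by airliner and were run there in a matching facility at the same time. The model is 1 cell line. Nothing in the labels ties the replicates of a group to different cultures, and a p-value therefore describes the scatter of these libraries alone, technical scatter included. The series set out to separate weightlessness from the other stimuli of flight, which is the question behind each pair of groups below.

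The kit took total RNA, marked its strand and removed ribosomal RNA, so transcripts without a poly(A) tail were retained. The libraries held 24248964 to 35388757 reads in the listed genes. Levels are given in scaled CPM, read counts divided by library size and by a further factor for each library. 1 read was worth 0.0285 to 0.0398 CPM. All 12 endothelial markers of a fixed list, among them PECAM1, CDH5 and VWF, were in the table, with summed levels of 1487 to 2627 CPM. Of 8 markers each, 4 of fibroblasts, 3 of epithelium and 1 of blood cells, CD14 at 1.04 to 2.88 CPM, were in the table, and the others were not analysed here.

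Histone proteins H2A, H2B, H3 and H4 form the core that DNA wraps around in a nucleosome, and H1 binds the DNA between cores. Genes of the clusters are transcribed mainly in S phase under the coactivator NPAT, and their mRNA ends in a conserved stem-loop in place of a poly(A) tail. The stem-loop binding protein SLBP guides the cleavage that makes this end, and the mRNA is degraded when DNA synthesis stops. Some of these genes also give polyadenylated transcripts that run past the stem-loop, mostly in cells that have left the cell cycle.

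The stem-loop is shown here because it is the feature that links these genes at the RNA level and that the choice by symbol did not use. The pattern GGNNCTTTTNAGNGCC was searched on the sense strand of GENCODE transcripts and was found in 26 members, and in 45 of 58721 genes in all. Many of the remaining members have annotated models that end with the coding sequence, and the missing pattern says only that these letters are not in the model. Among the 26, 15 carried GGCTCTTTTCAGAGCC, 5 carried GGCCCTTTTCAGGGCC, 4 carried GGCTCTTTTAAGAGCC, and HIST1H4I and HIST1H2AG each carried a form of their own. Capitals mark the 16 bases of the stem-loop, with 5 bases on either side, 5′ to 3′ in GRCh38.
HIST2H2BE, chr1:149886188-149886203, minus strand: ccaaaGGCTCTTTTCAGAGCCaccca
HIST1H2BD, chr6:26158587-26158602, plus strand: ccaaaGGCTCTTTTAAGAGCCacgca
HIST1H4E, chr6:26205001-26205016, plus strand: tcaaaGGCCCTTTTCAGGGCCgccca
HIST4H4, chr12:14770724-14770739, minus strand: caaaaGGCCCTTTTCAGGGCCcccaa
HIST1H4I, chr6:27139654-27139669, plus strand: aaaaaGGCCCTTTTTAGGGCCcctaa
HIST1H2AG, chr6:27133515-27133530, plus strand: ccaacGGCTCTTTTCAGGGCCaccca
The first 3 bases of the loop are T by the pattern and its last base is free, while the stem begins with GGCT in the H2A and H2B genes shown and with GGCC in the H4 genes shown. HIST2H2BE and HIST1H2BD belong to a list of 9 members known to give polyadenylated transcripts too.

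Promoters are shown for 3 members near the ends of the range in how far single libraries lay from their group, described further on, and were chosen for that. RefSeq promoters of GRCh38.p14, 250 bases before to 50 bases after the start of transcription, were matched for 50 of the 59 members. Both strands were searched for the TATA box, as TATAAA. The CCAAT box was searched as its name is spelled. The octamer, to which the Oct-1 factor binds, was searched as ATTTGCAT. The H1 box, an element of linker histone promoters, was searched as AAACACA. Capitals mark matches, and a match on the opposite strand appears as its reverse complement.
HIST1H2BM, chr6:27814772-27815071, plus strand: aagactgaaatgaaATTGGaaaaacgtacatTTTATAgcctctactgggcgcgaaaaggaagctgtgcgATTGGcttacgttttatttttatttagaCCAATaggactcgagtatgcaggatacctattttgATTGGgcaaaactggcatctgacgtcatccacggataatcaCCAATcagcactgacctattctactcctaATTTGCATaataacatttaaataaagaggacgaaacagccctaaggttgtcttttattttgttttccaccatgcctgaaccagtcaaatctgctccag
HIST3H2BB, chr1:228457853-228458152, plus strand: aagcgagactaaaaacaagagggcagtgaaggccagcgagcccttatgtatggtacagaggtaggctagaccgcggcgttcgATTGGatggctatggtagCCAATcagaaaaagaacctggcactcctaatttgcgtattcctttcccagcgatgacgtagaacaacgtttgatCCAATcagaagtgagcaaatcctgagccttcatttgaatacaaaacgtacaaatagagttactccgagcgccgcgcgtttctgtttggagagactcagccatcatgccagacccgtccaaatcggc
HIST1H1B, chr6:27867539-27867838, minus strand: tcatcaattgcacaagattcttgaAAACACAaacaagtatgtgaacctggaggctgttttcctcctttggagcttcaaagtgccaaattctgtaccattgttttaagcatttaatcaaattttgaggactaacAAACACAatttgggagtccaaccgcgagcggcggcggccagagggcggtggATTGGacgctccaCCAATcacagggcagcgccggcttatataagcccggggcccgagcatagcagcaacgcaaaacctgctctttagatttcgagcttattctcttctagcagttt
The octamer was in 13 of 17 H2B and 9 of 12 H2A promoters and in 0 of the 4 H1, 7 H3 and 10 H4 promoters, against 1.8% of 27305 promoters of the same length. The H1 box was in 4 of 4 H1 promoters and in 6 of the 50, against 5.76% of all. The CCAAT box was in 4 of 4 H1, 12 of 12 H2A, 17 of 17 H2B and 7 of 7 H3 promoters but in 3 of 10 of H4, against 35.7% of all. The TATA box was in 34 of 50, against 12.0%. Windows of H2A and H2B genes that start back to back overlap, and a site in the overlap was counted for both genes. These counts are therefore of windows and not of separate sites. The HIST1H2BM window holds matches to the TATA box, the CCAAT box and the octamer, and the HIST3H2BB window to the CCAAT box only. The TATA match in the HIST1H2BM window lies on the opposite strand. It is in sequence shared with the window of the neighbouring gene HIST1H2AJ, where it reads TATAAA. A match is a description of letters and not a site of binding.

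The summed level of the 59 members varied more between the libraries of space_1g than between the group means. It was 7422, 7114 and 12510 CPM in space_microg replicates 1 to 3, 1731 and 8173 CPM in space_1g replicates 1 and 2, and 7275, 5940 and 3343 CPM in ground replicates 1 to 3. The group means were 9016 ± 3030 (SD, n = 3), 4952 ± 4555 (SD, n = 2) and 5519 ± 2000 (SD, n = 3). As a share of the reads in listed genes, histone genes took 0.172% to 1.22%. The library labelled space_1g replicate 1 was lowest and space_microg replicate 3 highest, 7.23-fold apart. Between the 2 libraries of space_1g alone the ratio was 4.72, and ground replicates 1 and 2 lay 2.18- and 1.78-fold above ground replicate 3. Fewer cells making histone mRNA and less of it per cell cannot be told apart in bulk RNA.

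The same libraries stood at the ends for nearly every member. Of 59 members, 54 were lowest in space_1g replicate 1, and 58 were highest in space_microg replicate 3. Those lowest elsewhere were HIST3H2A, HIST2H2BA and HIST2H3C in space_microg replicate 2, and HIST1H3E and HIST1H4A in ground replicate 3. HIST2H2BA, the pseudogene, was highest in space_1g replicate 2. These genes are named because of their values.

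**Figure D1:**
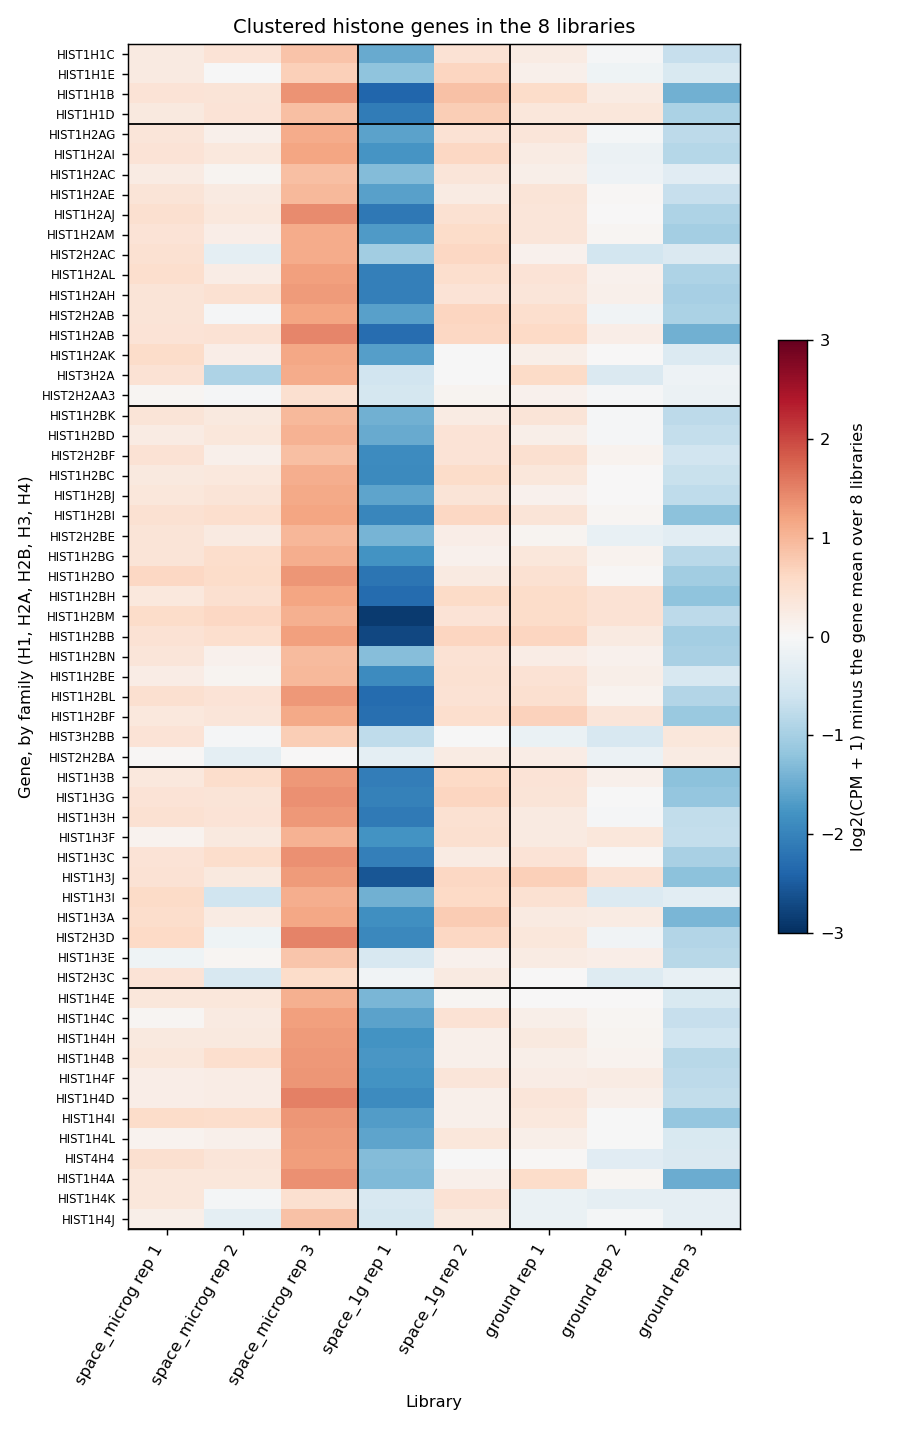
Heat map of the 59 clustered histone genes (rows, by family and then by mean level) in the 8 libraries (columns, replicates named as rep), coloured by log2(CPM + 1) minus the gene's mean over the 8 libraries. Blue columns for space_1g replicate 1 and, less deep, ground replicate 3, and a red column for space_microg replicate 3, run through all 5 families.

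Family proportions varied far less than the total. The H1 genes took 23.9% to 29.4% of the members' summed level in a library, H2A genes 22.5% to 25.6%, H2B genes 24.7% to 27.6%, H3 genes 13.5% to 18.2% and H4 genes 5.18% to 7.01%. Histone H3 had its lowest shares, 13.5% and 14.4%, in space_1g replicate 1 and ground replicate 3, and its highest in space_microg replicate 3. Since CPM counts reads and not reads per length, and many annotated models lack the untranslated ends, these shares are of reads and not of molecules.

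Genes of the DNA replication machinery did not share this spread. The summed level of 39 DNA replication genes, with the MCM helicase and the replicative polymerases, was 5602 CPM in space_1g replicate 1 and 6492 CPM in space_microg replicate 3, which were its lowest and highest values, 1.16-fold apart. The 24 mitosis genes summed to 2729 CPM in space_1g replicate 1, 3212 CPM in ground replicate 3 and 5665 to 6733 CPM in the other 6 libraries. The 19 cell-cycle inhibitors and p53 targets ran the other way, with 7445 and 6076 CPM in those 2 libraries and 1825 to 3806 CPM in the rest. CDKN1A, which encodes the inhibitor p21, was at 2315 and 2067 CPM there and at 348 to 880 CPM elsewhere. The 4 fibroblast markers in the table were also lowest in sum in space_1g replicate 1, at 109 CPM against 305 CPM in its mate, and stood at 256, 270 and 168 CPM on the ground and 192, 155 and 295 CPM in space_microg, while the 3 epithelial keratins stayed between 257 and 371 CPM. The 12 endothelial markers had a median log2 difference from the ground of -0.39 in space_microg and -0.39 in space_1g, and of -0.02 between the flight groups, and 0 of them passed limma's adjusted threshold. Whether the state of the cell cycle or the mix of cells in these libraries plays a part in the histone levels was not tested.

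**Figure D2:**
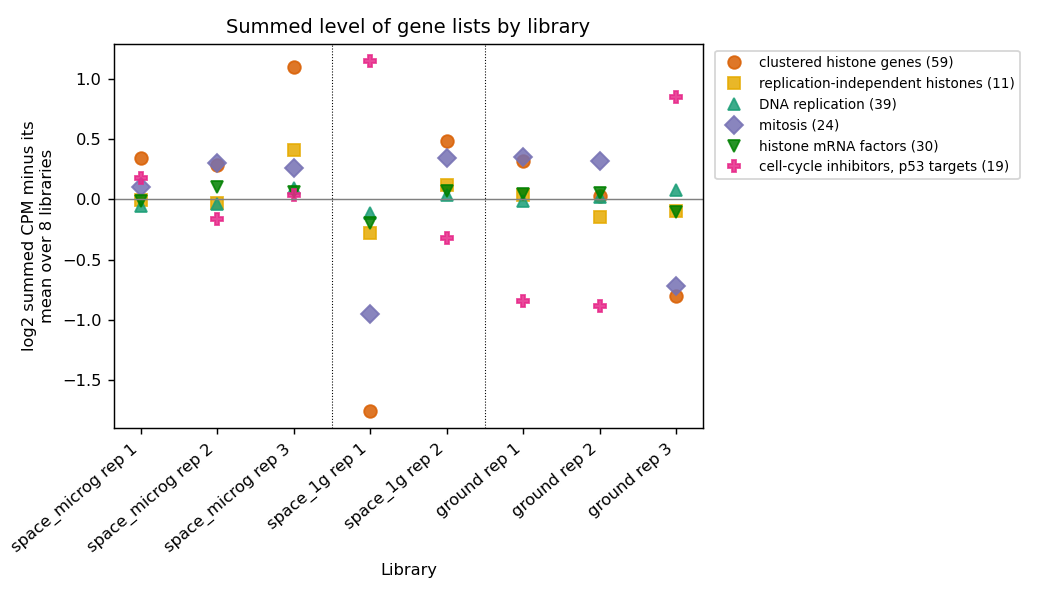
Summed CPM of 6 gene lists in each library, as log2 minus the list's mean over the 8 libraries; the number of genes is in brackets in the key and dotted lines part the groups. The clustered histone genes span the widest range, from 1731 to 12510 CPM, while DNA replication genes stay between 5602 and 6492 CPM.

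In space_microg replicate 3 the mitosis and inhibitor lists did not stand apart with the histone genes. Its mitosis sum of 6321 CPM and its inhibitor sum of 3460 CPM lay within the range of the other space_microg libraries. Other short genes were somewhat higher there: over 78 coding genes outside the clusters with under 1000 bases of exon, the median deviation from the gene's mean was 0.40 on the log2(CPM + 1) scale, against 1.14 for the histone genes. The same short genes were at 0.02 in space_1g replicate 1 and 0.03 in ground replicate 3, where the histone genes were at -1.74 and -0.78. The part of gene length in the histone levels was otherwise not tested.

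Linker histone genes gave the 3 highest levels in reads. HIST1H1C, which encodes H1.2, had the highest level per length of all members, at 985 CPM per kb of exon. It stood at 690, 759 and 1043 CPM in space_microg, 200 and 772 CPM in space_1g, and 680, 560 and 355 CPM on the ground. HIST1H1E, which encodes H1.4, stood at 534, 438 and 723, then 189 and 688, then 493, 406 and 323 CPM. HIST1H1B, which encodes H1.5, had a wider range, with 451, 450 and 872 CPM in space_microg, 65.1 and 634 CPM in space_1g, and 501, 405 and 125 CPM on the ground. Its highest and lowest libraries were 13.4-fold apart, against 3.82-fold for HIST1H1E. For HIST1H1C the lowest space_microg value exceeded the highest ground value by a narrow margin, and for the other two the groups overlapped.

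Among H2A genes, HIST1H2AG stood at 267, 232 and 454 CPM in space_microg, 68.3 and 281 CPM in space_1g, and 267, 199 and 121 CPM on the ground. HIST1H2AI stood at 259, 244 and 445, then 55.8 and 301, then 232, 172 and 107 CPM, with no overlap between space_microg and ground. HIST1H2AC, on the list of genes with polyadenylated transcripts, stood at 226, 199 and 352, then 76.8 and 245, then 214, 171 and 150 CPM. The 3 genes followed the same order of libraries at the ends but HIST1H2AC less steeply, with a 4.58-fold range against 7.96-fold for HIST1H2AI. The other HIST1 genes for H2A ranged from 6.18-fold for HIST1H2AE to 15.0-fold for HIST1H2AB.

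The H2B genes with the most reads were HIST1H2BK, HIST1H2BD and HIST2H2BF, all on the polyadenylated list. HIST1H2BK stood at 240, 226 and 365 CPM in space_microg, 67.1 and 218 CPM in space_1g, and 239, 178 and 107 CPM on the ground. HIST1H2BD stood at 208, 222 and 361, then 61.0 and 234, then 199, 172 and 106 CPM. HIST2H2BF stood at 196, 159 and 269, then 37.9 and 191, then 199, 154 and 95.6 CPM. Between space_microg and ground, HIST1H2BD did not overlap and the other two did. HIST1H2BC was at 167, 168 and 289, then 35.3 and 200, then 171, 136 and 85.2 CPM. HIST1H2BJ was at 148, 152 and 258, then 38.4 and 154, then 128, 117 and 68.2 CPM. Both had the low and high libraries of the others, and HIST1H2BJ did not overlap between space_microg and ground. HIST1H2BM, which has no polyadenylated form on the list, was at 89.3, 94.4 and 129 CPM in space_microg, 7.51 and 81.4 CPM in space_1g, and 90.1, 82.3 and 34.6 CPM on the ground. Its range of 17.1-fold was exceeded among members only by the 17.7-fold of HIST1H2BB.

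Of the H3 genes, HIST1H3B stood at 269, 310 and 535 CPM in space_microg, 50.2 and 327 CPM in space_1g, and 288, 241 and 91.3 CPM on the ground. HIST1H3G stood at 200, 195 and 389, then 36.1 and 234, then 197, 148 and 66.1 CPM, and HIST1H3H at 182, 177 and 331, then 30.1 and 182, then 160, 131 and 79.7 CPM. The ground and space_microg values overlapped for HIST1H3B and HIST1H3G and not for HIST1H3H. These genes encode the H3 forms deposited during replication, H3.1 for all 3.

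The H4 genes encode 1 identical protein. HIST1H4E stood at 105, 105 and 177 CPM in space_microg, 31.7 and 86.2 CPM in space_1g, and 84.6, 84.6 and 60.3 CPM on the ground. HIST1H4C stood at 75.7, 88.1 and 172, then 23.3 and 98.3, then 82.4, 75.8 and 44.7 CPM, and HIST1H4H, on the polyadenylated list, at 57.5, 58.1 and 116, then 12.8 and 51.8, then 57.9, 49.5 and 30.6 CPM. HIST1H4I was at 26.4, 26.1 and 46.4, then 4.88 and 19.7, then 22.4, 17.6 and 7.42 CPM. HIST1H4E and HIST1H4I were higher in every space_microg library than in every library of the other groups, whereas HIST1H4C overlapped with both.

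Members outside HIST1 had lower sums but the same direction. The 8 HIST2 genes summed to 644, 487 and 1002 CPM in space_microg, 166 and 657 CPM in space_1g, and 587, 426 and 326 CPM on the ground. HIST2H2BE, an H2B gene with a known polyadenylated form, was at 151, 139 and 231, then 43.8 and 133, then 123, 98.8 and 93.0 CPM, and its space_microg values overlapped with neither other group. HIST2H2AC, its neighbour, was at 147, 86.9 and 233, then 51.7 and 165, then 117, 73.3 and 78.8 CPM. HIST2H2AB was at 84.6, 62.8 and 150, then 20.3 and 102, then 92.1, 60.2 and 33.4 CPM. HIST2H3D, an H3 gene, was at 61.8, 37.2 and 115, then 9.88 and 62.3, then 51.2, 37.9 and 21.7 CPM. For these 3 genes the space_microg libraries overlapped with both other groups.

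The HIST3 and HIST4 genes had few reads among the members named. HIST3H2A was at 13.2, 4.49 and 21.6 CPM in space_microg, 6.01 and 9.48 CPM in space_1g, and 14.5, 6.81 and 8.40 CPM on the ground. HIST3H2BB was at 24.1, 17.3 and 30.7, then 10.2 and 17.8, then 15.4, 12.4 and 22.8 CPM, so that ground replicate 3, below the mean of its group mates for 57 of 59 members, was here the highest of its group. HIST4H4 was at 19.6, 18.1 and 33.9, then 4.94 and 13.6, then 14.0, 10.6 and 9.84 CPM. It was higher in each space_microg library than in any library of the other groups. Of the least abundant members, HIST2H2BA was at 0.759 to 1.59 CPM and HIST2H3C at 0.204 to 1.44 CPM, or 7 to 43 reads for the latter.

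Between weightless cells and ground controls, 0 of 59 members passed limma at a Benjamini-Hochberg adjusted p of 0.05, as did 0% of the 16103 genes tested. edgeR on the recovered reads called 0 genes, and DESeq2 called 3, of which 0 were members. The median log2 difference of the members was 0.70, against -0.02 for all genes tested, and 58 of 59 members had a positive difference and 1 a negative one, against 47% and 53% of all genes. The widest differences were 1.09 ± 0.53 (SE) for HIST1H4I and -0.18 ± 0.24 (SE) for HIST2H2BA, both with large adjusted p in limma, 0.866 and 0.904. HIST4H4, at 0.96 ± 0.37 (SE), was the 1 member with an unadjusted limma p under 0.05 (0.0302), against 2.05% of genes tested on the higher side and 2.27% on the lower, and its adjusted p was 0.866. It is named here also because of that value. That count of 1 was 17 when either space_1g library was left out and 17 when the space_1g group was, which leaves the members' median as it is and alters the estimate of the spread, with 931 to 937 genes in all under the same p. It was 2 without space_microg replicate 2 or ground replicate 1, with 364 and 459 genes in all. It was 0 without space_microg replicate 3 or ground replicate 2, with 252 and 518 genes in all.

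The filter, 2 or more libraries with 1 CPM or above, was passed by all 59 members. In 17 of them, 28.8%, every space_microg library lay above every ground library, against 7.88% of all genes tested, and the opposite held for 0 members, against 6.53%. That count of 17 was 33 without space_microg replicate 2, against 10.3% of genes, and 40 without ground replicate 1, against 11.6%. Without space_microg replicate 1 it was 22, against 15.8%, and without ground replicate 3 it was 18, against 16.7%. It was 17 without any other single library, against 7.88% to 12.4% of genes. Leaving out space_microg replicate 3 gave the members a median log2 difference of 0.45, and leaving out ground replicate 3 gave 0.39. Without ground replicate 3, space_1g replicate 1 and space_microg replicate 3 it was 0.12, with 45 members above 0.

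Between the centrifuge and the ground, the question of what flight does at matched gravity, 0 of 59 members passed limma's adjusted threshold, as did 0% of genes tested. edgeR and DESeq2 on the recovered reads also called 0. The members' median log2 difference was -0.48, against 0.01 over all genes, with 55 members below 0 and 4 above, against 48.8% and 51.2% of all genes. At an unadjusted p under 0.05, 0 members passed, against 0.72% of genes higher and 0.826% lower. No member separated the groups, against 4.94% of genes higher and 5.73% lower. The extremes were HIST1H2BM at -1.29 ± 0.82 (SE) and HIST2H3C at 0.28 ± 0.34 (SE), both with a limma adjusted p of 1.00.

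The direction of this comparison rested on 1 library of 2. With space_1g replicate 1 left out, the members' median became 0.54, 59 of 59 differences were positive, and 38 members had the remaining library above every ground library, against 22.7% of genes. With space_1g replicate 2 left out, it became -1.56 and 58 of 59 were negative. The remaining library then lay below every ground library in 56 members, against 24.9% of genes. On the recovered reads the median with both libraries was -0.23 in edgeR and -0.25 in DESeq2, with 8 members above 0 and 51 below in each. With both space_1g replicate 1 and ground replicate 3 left out it was 0.24. HIST1H1C, for example, moved from -0.38 ± 0.52 (SE) to 0.59 without space_1g replicate 1.

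Between weightless and centrifuged cells, both in orbit, 0 of 59 members passed limma's adjusted threshold, as did 0% of genes tested, and edgeR and DESeq2 called 0. The members' median log2 difference was 1.24, against -0.03 over all genes, and 58 of 59 were above 0 and 1 below, against 46.6% and 53.4% of all genes. The differences ran from -0.07 ± 0.27 (SE) for HIST2H2BA to 1.97 ± 0.82 (SE) for HIST1H2BM, with limma adjusted p of 0.961 and 0.912. At an unadjusted limma p under 0.05, 16 of 59 members were higher, against 0.696% of genes tested, and 0 lower, against 0.621%. In 15 of 59 members, 25.4%, every space_microg library lay above both space_1g libraries, against 7.24% of genes, and 0 lay below, against 6.91%.

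Without space_microg replicate 3 the count of 16 became 2, with 70 genes in all under the same p, against 212 with all 8 libraries. In edgeR and DESeq2 on the recovered reads it was 3 and 12, with 221 and 339 genes in all. The count of 15 stayed at 15 without space_1g replicate 1, but against 16.9% of genes, and 1 member lay below, against 16.7%. It became 56 without space_1g replicate 2, against 35.3% of genes, and 22 without space_microg replicate 2, against 10.9%. Without space_1g replicate 1 the members' median was 0.11, with 47 above 0 and 12 below. Without that library, ground replicate 3 and space_microg replicate 3 it was -0.17, with 18 above 0 and 41 below. The comparisons share libraries with one another. HIST1H2BM, with log2 differences of 0.68, -1.29 and 1.97 in the order given, stood at 7.51 CPM in space_1g replicate 1, and its last difference was 0.33 without that library.

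**Figure D3:**
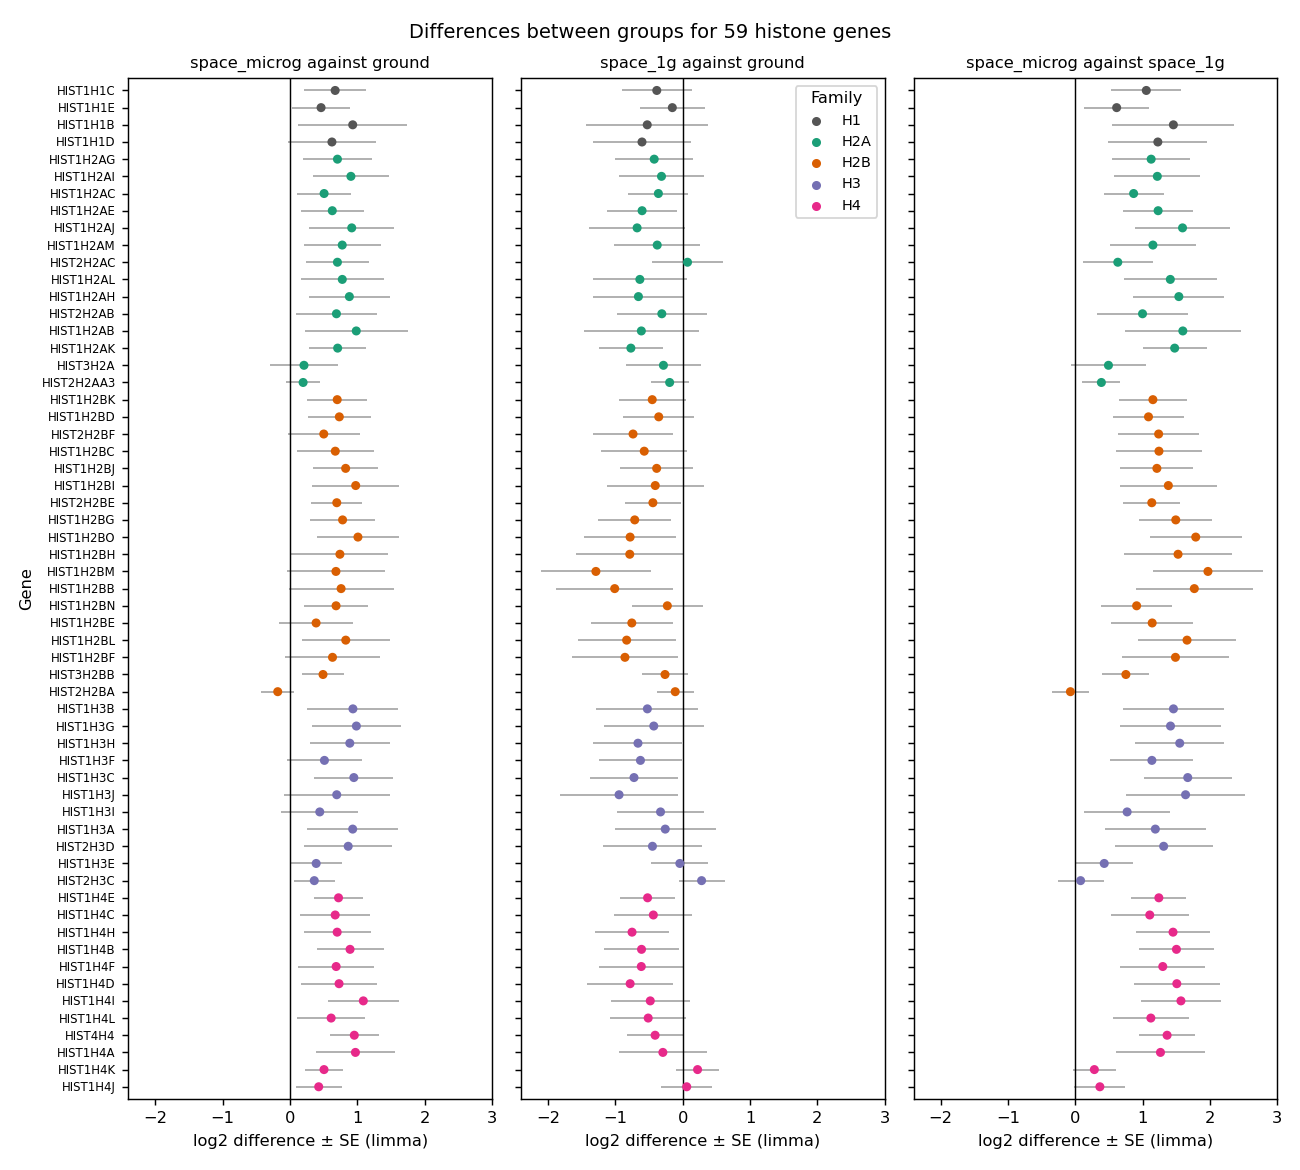
Log2 difference ± SE from limma for each of the 59 members (rows, coloured by family) in the 3 comparisons, on log2(CPM + 1). In the left and right panels 58 of 59 points lie above 0, in the middle panel 55 lie below 0, and none has an adjusted p under 0.05.

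Within groups, members differed in how far the outlying libraries lay from their mates. From space_1g replicate 2 to replicate 1 the median difference over 59 members was -2.04 on the log2(CPM + 1) scale, from -3.39 for HIST1H2BB to -0.38 for HIST2H3C. Ground replicate 3 lay -0.99 from the mean of ground replicates 1 and 2, from -1.85 for HIST1H1B to 0.68 for HIST3H2BB. Over the 54 members with a mean of at least 5 CPM, Spearman's rho between these distances was 0.70 and Pearson's r 0.71, a description across genes that share the same libraries. Space_microg replicate 3 lay 0.82 above its mates, from 0.14 to 1.36, and its distances did not follow the others, with rho of -0.08 and -0.07.

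By locus, the median distance of space_1g replicate 1 was -2.19 for 48 HIST1 members, -1.62 for 8 HIST2, -0.67 for 2 HIST3 and -1.29 for HIST4H4. For ground replicate 3 the medians in the same order were -1.03, -0.24, 0.23 and -0.28. By these medians the HIST1 members lay farthest out in both libraries. HIST2H2BA, HIST2H3C and HIST2H2AA3 had means of 1.19, 0.730 and 1.45 CPM, where the log2(CPM + 1) scale understates change. Their distances in space_1g replicate 1 were -0.54, -0.38 and -0.60. The other HIST2 genes lay from -2.54 for HIST2H3D to -1.58 for HIST2H2BE there. In ground replicate 3 they lay from -1.14 for HIST2H2AB to -0.23 for HIST2H2AC. By family, distances in space_1g replicate 1 ran from a median of -1.86 for 12 H4 genes to -2.54 for 11 H3 genes, a narrower spread than that by locus.

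The 9 members of the polyadenylated list had medians of -1.94 in space_1g replicate 1 and -0.80 in ground replicate 3, against -2.27 and -1.11 for the 45 other members at or above 5 CPM. Their range was narrow, -2.47 to -1.58 and -0.94 to -0.24. A split by annotation gave similar values: 18 members whose model runs more than 100 bases past the stem-loop had medians of -1.92 and -0.84, and the other 36 had -2.27 and -1.08. All 9 members of the list fell within the range of the others, and no test was made of these splits.

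**Figure D4:**
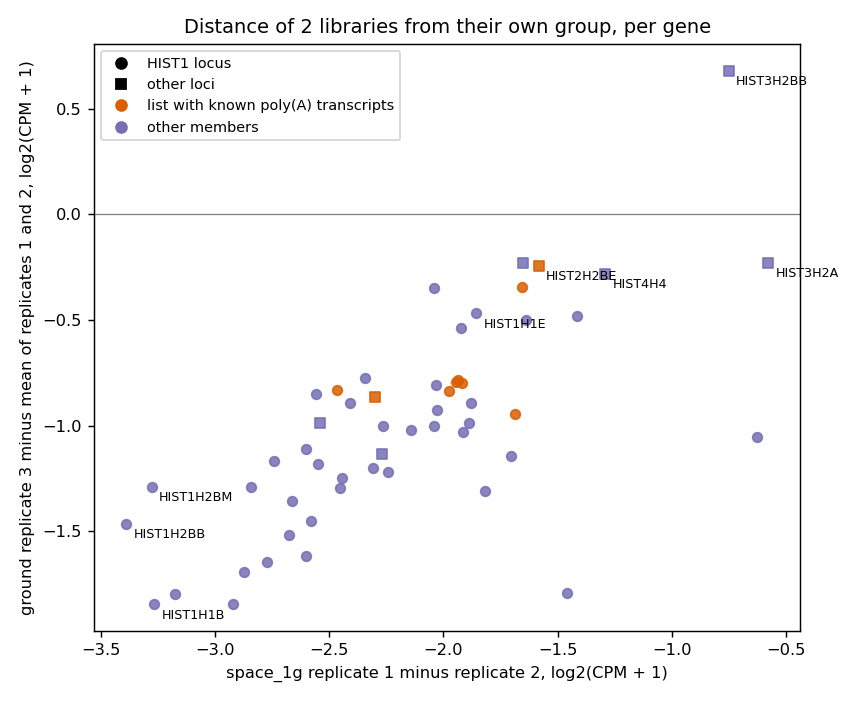
For the 54 members with a mean of at least 5 CPM, the distance of space_1g replicate 1 from replicate 2 (horizontal axis) against that of ground replicate 3 from the mean of replicates 1 and 2 (vertical axis), both as differences of log2(CPM + 1); colour marks the polyadenylated list and shape the locus. The points run from HIST1H1B and HIST1H2BB at the lower left to the HIST3 genes at the right, where HIST3H2BB is the only point above 0 on the vertical axis.

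The genes that make and process histone mRNA varied little in sum beside their products. All 30 listed genes for transcription and 3′ processing of histone mRNA were in the table, and their sum was 2315 to 2839 CPM. NPAT, the coactivator, was at 120, 156 and 125 CPM in space_microg, 94.9 and 137 CPM in space_1g, and 131, 145 and 84.7 CPM on the ground, so it was lowest in ground replicate 3 and space_1g replicate 1. SLBP was at 103, 102 and 125, then 91.0 and 113, then 112, 99.4 and 105 CPM. In space_microg against ground the differences were 0.18 ± 0.24 (SE) for NPAT and 0.06 ± 0.15 (SE) for SLBP, with limma adjusted p of 0.903 and 0.953. Of the 30, 0 passed, 18 were above 0 and 12 below, with a median of 0.06, and the smallest unadjusted p, 0.0473, was that of SRRT, which encodes ARS2, at -0.36 ± 0.16 (SE).

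In the other comparisons 0 of the 30 passed either, with 9 above 0 and a median of -0.07 for space_1g against ground and 20 above 0 and a median of 0.09 for space_microg against space_1g. Of 22 histone chaperone and assembly genes, 0 passed in any of the 3 comparisons. In space_microg against ground their median was -0.01, with 10 above 0, and TONSL, which reads new histone H4 behind the replication fork, had the smallest unadjusted p, 0.00476, at -0.62 ± 0.17 (SE) and a limma adjusted p of 0.866. Of 39 DNA replication genes 0 passed in any comparison, and their medians were -0.00, -0.09 and 0.06. Of 24 mitosis genes 0 passed, with 24 above 0 and a median of 0.27 in space_microg against ground, 22 below 0 and a median of -0.31 in space_1g against ground, and 24 above 0 and a median of 0.60 in space_microg against space_1g. Without space_1g replicate 1 and ground replicate 3 the mitosis medians were -0.02, 0.06 and -0.07.

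Histone genes outside the clusters, most of which are not tied to S phase, varied less in sum. Of 15 listed, 11 were in the table, with sums of 1728, 1701 and 2305 CPM in space_microg, 1438 and 1891 CPM in space_1g, and 1786, 1570 and 1628 CPM on the ground, a 1.60-fold range against 7.23-fold for the clustered genes. Some of the 11 were lowest in space_1g replicate 1 and ground replicate 3, and are named for that. H3F3A was at 39.7 and 47.4 CPM there against 72.1 to 115 CPM elsewhere, and H2AFV at 128 and 111 against 230 to 294 CPM. CENPA was at 9.39 and 9.72 CPM there against 25.5 to 34.5 CPM elsewhere. H3F3B was not low there, at 473 and 522 CPM against 394 to 567 CPM. The median differences of the 11 were 0.09, -0.07 and 0.07 in the comparisons as ordered above, and 0 passed. H2AFZ, which encodes the variant H2A.Z, was at 397, 452 and 559, then 302 and 399, then 399, 344 and 350 CPM, and its difference of 0.35 ± 0.18 (SE) in space_microg against ground had a limma adjusted p of 0.866. H2AFX, which can end in a stem-loop or in a poly(A) tail, was chosen after its values were seen: it was at 124, 39.7 and 214, then 93.7 and 155, then 128, 60.4 and 113 CPM.

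RNAs that mostly lack a poly(A) tail had another order of libraries in sum, though not gene by gene. Of 22 listed, 11 were in the table, among them RN7SK, RMRP and RPPH1, and their sum was highest in ground replicate 3, at 30512 CPM, and space_1g replicate 1, at 28657 CPM, where histone sums were low. In the other 6 libraries it was 15958 to 23827 CPM. The high sums differed in make-up. MALAT1 and NEAT1 were at 8414 and 8069 CPM in space_1g replicate 1 but at 4045 and 4460 CPM in ground replicate 3. RN7SL1 and RN7SL2 were at 4522 and 3843 CPM in space_1g replicate 1 and at 8368 and 7666 CPM in ground replicate 3. RPPH1 and SCARNA10 were highest in space_microg replicate 3, where most histone genes were highest too. RPPH1, the RNA of ribonuclease P, was at 621, 525 and 1722 CPM in space_microg, 804 and 516 CPM in space_1g, and 332, 243 and 575 CPM on the ground, and had a difference of 1.20 ± 0.48 (SE) with a limma adjusted p of 0.866 in space_microg against ground. The part of RNA quality in the histone levels was not tested.

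Shared sequence limits what can be said of single copies. The share of a gene's 50-base stretches that also occur in another gene was 0% for 24 members and under 20% for 46. HIST2H3C, HIST2H2AA3 and HIST1H4K, for which it was 100%, had 0.441, 2.64 and 9.98 CPM per kb, against a median of 127 CPM per kb for the 46. Reads that match several genes equally can be lost or split in counting, and the labels do not say how they were treated. HIST2H3D at 80.4% had 121 CPM per kb, so a high share did not always go with a low level. With the 46 members alone the median differences were 0.71, -0.52 and 1.28, next to 0.70, -0.48 and 1.24 for all 59.

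**Figure D5:**
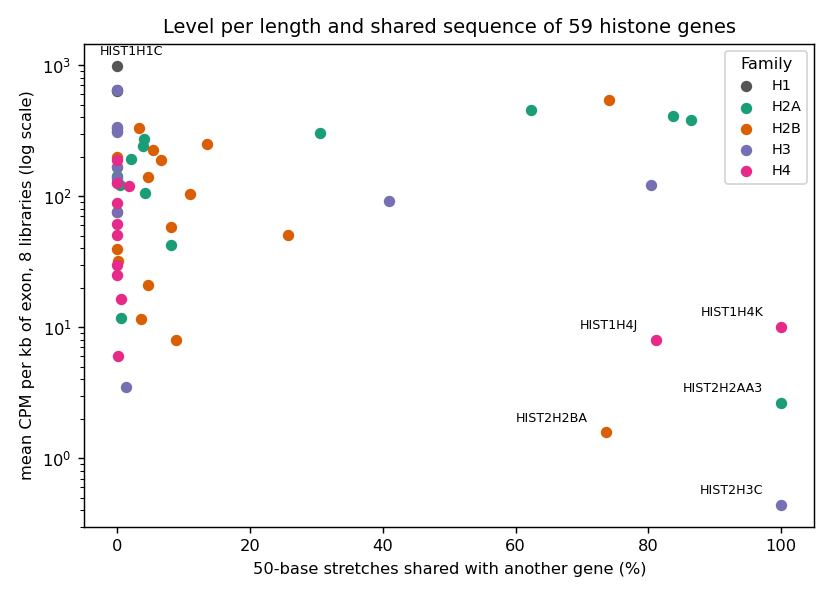
For each of the 59 members, the percent of its 50-base stretches found in another gene's transcripts (horizontal axis) against the mean CPM per kb of exon over the 8 libraries (vertical log axis), coloured by family. The 3 members with every stretch shared lie at or below 9.98 CPM per kb, and HIST1H1C is highest at 985.

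Some members share a promoter region with a neighbour. In the annotation 10 pairs of members start back to back within 1000 bases, with gaps of 218 to 356 bases between the models, and 9 of these join an H2A to an H2B gene. The pair 356 bases apart is HIST1H3J and HIST1H2BO. HIST1H2BO is paired with HIST1H2AM as well, and the HIST1H3J and HIST1H2AM models overlap. HIST1H2AK and HIST1H2BN were not counted because their models overlap, although their RefSeq promoter windows overlap too. HIST2H2BE and HIST2H2AC, 322 bases apart, differed by 0.07 in their distance in space_1g replicate 1 and by 0.01 in ground replicate 3. HIST1H2BC and HIST1H2AC, 218 bases apart, differed by 0.81 and 0.49, the former being the farther out in both. Over the 10 pairs the difference in space_1g replicate 1 ran from 0.03 to 0.81, and pairs that are not neighbours were not compared. The widest gap in ground replicate 3 was that of HIST3H2A and HIST3H2BB, at 0.91.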

How the data were processed

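RNA levels of 16153 genes were measured in 8 libraries of HMEC-1 cells. The deposited matrix holds 1 signal value per gene and library, which the labels name CPM. The submitters' processing notes name STAR 2.5.3, featureCounts, edgeR, CASAVA 1.8.2 and FastQC, with GRCh38 (hg38) as build, and give no roles. The annotation, the strand setting and the treatment of multiply mapped reads are not given in the sources used here. All values were whole multiples of 1 read within 1e-06 read (100%), and the columns carry edgeR TMM scaling, recomputed from these reads to within 2.22e-16, so the deposited signal is scaled CPM. The design was written for plain CPM and its test was kept.

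Values were analysed as log2(CPM + 1), a scale that understates the change of low genes, for genes with at least 1 CPM in at least 2 libraries (16103). The test was limma 3.58.1 in R 4.3.3 (lmFit, eBayes with trend), two-sided, all 8 libraries in 1 fit without covariates, with Benjamini-Hochberg adjustment over all genes at 0.05. It was tested on simulated data first, with planted changes larger than any member's difference. The power to call differences of the members' size was not checked. A count of 0 allows up to 3 reads, 0.0855 to 0.119 CPM, for counting error only. Pairs of libraries in a group differed far beyond counting noise (chi-square per degree of freedom 19.4 to 205), so none was taken as a duplicate.

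The members, the gene lists and the libraries left out were chosen with earlier results of these data known. Named members were the 3 with the highest mean per family, the extremes of each comparison, the polyadenylated list, and members outside HIST1 with a mean of at least 10 CPM; of other lists, those of smallest p in space_microg against ground. NPAT and SLBP were always named. Positions, models and stem-loops are from GENCODE release 29 (GRCh38), promoters from RefSeq (GRCh38.p14). Alternatives were other pseudocounts, filters and scalings, only the 2 groups compared, the replicate number as a block, edgeR 4.0.16 and DESeq2 1.42.0 on the recovered reads, and fits without 1 library at a time. Where 1 space_1g library was dropped, the lone one was assumed to vary as the other groups do.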

Additional observations from a re-analysis of the deposited data

How the results depend on the processing

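No member passed the adjusted threshold under any alternative run, and the smallest adjusted p of a member over all of them was 0.322, without space_1g replicate 2. Over all genes, space_microg against ground gave 3 calls with DESeq2 on the recovered reads and 7 without space_1g replicate 1, ground replicate 3 and space_microg replicate 3, a set of libraries chosen after seeing the data; the cause was not tested. Leaving out 1 library at a time, the members' median log2 difference was 0.39 to 0.95 in space_microg against ground, -1.56 to 0.54 in space_1g against ground and 0.11 to 2.31 in space_microg against space_1g. The last was 0.11 without space_1g replicate 1 and ground replicate 3 together, and -0.17 without space_microg replicate 3 as well. After scaling to other short coding genes, also chosen after seeing the data, the medians were 0.57, -0.62 and 1.16.

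Of 457 refits of 23 differences of single genes, 21 reversed and 0 passed the threshold. In space_1g against ground, leaving out 1 library at a time gave -1.36 to 0.59 for HIST1H1C, -1.44 to 0.59 for HIST1H2AG, -1.29 to 0.39 for HIST1H2BK, -2.93 to 0.35 for HIST1H2BM, -1.86 to 0.81 for HIST1H3B and -1.23 to 0.19 for HIST1H4E, the low end without space_1g replicate 2 and the high end without space_1g replicate 1. Without that library and ground replicate 3, and equally without space_microg replicate 3 as well, the values were 0.32 for HIST1H1C, 0.28 for HIST1H2AG, 0.077 for HIST1H2BK, 0.31 for HIST1H3B and 0.028 for HIST1H4E. In space_microg against space_1g without all 3 libraries they were -0.092 for HIST1H1C, -0.17 for HIST1H2AG and -0.18 for HIST1H3B, and HIST2H2BA ranged from -0.34 to 0.20 without 1 library at a time, with 0.036 without space_microg replicate 2.

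Replicate numbers were not seen to pair the libraries: correlations of same-numbered libraries' deviations from their group means ran from -0.68 to 0.68. Not every library correlated best with its own number. Deviations within a group sum to 0, so with 2 or 3 libraries these correlations cannot exclude a pairing. With the number as a replicate block the members' medians were 0.70, -0.50 and 1.27, with 0 members and 0 genes called. The 16 members with an unadjusted limma p under 0.05 in space_microg against space_1g became 8, while such genes in all rose from 212 to 850. Groups held 2 or 3 libraries, and depth gave at least 7 reads for every member in every library.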
